A study of Glycine max with 4 samples.

Results

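Isolated binding sites are sites that have no close neighbour although they lie in the arms of the chromosomes, where sites are dense. They were chosen from the chromatin immunoprecipitation sequencing (ChIP-seq) peaks of the protein encoded by GLYMA.07G038400 in soybean embryos. A shared site was a replicate 1 peak with 1 bp or more in common with a replicate 2 peak, placed at the replicate 1 summit, which is the position of the highest ChIP signal in the peak. A shared site counted as isolated when its summit lay in the first or last 25% of a chromosome and no other shared summit lay within 50 kb on either side. Of 22252 shared sites on the 20 chromosomes, 17621 lay in these outer parts, called arms here, and 552 of those were isolated. This is 3.13% of the arm sites (95% Wilson interval 2.89 to 3.40). When all replicate 1 peaks were used without replicate 2, 404 arm peaks were isolated, or 1.65%. The other 17069 arm sites serve as the comparison throughout.

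The embryos came from the cultivar Williams 82 at the early maturation stage and were dissected from seeds 6 to 7 mm long, and no genetic change or treatment is named in the labels. The series holds 4 samples, namely 2 ChIP replicates and an input, or total chromatin, for each. The ChIP antibody was raised against a peptide of the protein itself, amino acids 188 to 202. The labels name no control without the protein or with another antibody, so true binding and recovery of other chromatin by the antibody cannot be told apart. Nor do they say whether the replicates came from separate plants, so the spread between replicates may in part be technical.

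The authors named their peaks GRF5, an abbreviation left unexplained in the labels. GRF usually stands for growth-regulating factor in plant biology. These transcription factors act with coactivators and are known for promoting cell proliferation in growing organs. At the early maturation stage, the embryo passes from cell division to the filling of its cells with storage protein and oil. In soybean, genes are concentrated towards the chromosome ends, and the middle of most chromosomes is rich in repeats and poor in genes. A site without close neighbours in an arm is therefore a sparse place in a part of the genome that usually holds many sites.

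The deposited lists held 31090 peaks in replicate 1 and 25502 in replicate 2. Fold enrichment is the authors' deposited ratio of the ChIP pileup at the summit to the background that the peak caller estimated there. The number of overlapping ChIP fragments behind each peak was recovered from its fold and p-value. Over the chromosomes the median was 34 fragments in replicate 1 and 26 in replicate 2. The isolated sites rested on at least 15 fragments in replicate 1 and 12 in replicate 2. Since the sites were chosen from the same peaks that give these values, all comparisons with other arm sites are descriptions without a test, and intervals cover counting error only.

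Isolated sites had no close neighbour but were rarely far from all other sites. The distance to the nearest other shared summit had a median of 68.7 kb (interquartile range 58.2 to 97.7), against 3.91 kb (1.59 to 10.5) for the other arm sites, a gap that the choice of the sites fixes. Within 500 kb on either side, an isolated site had a median of 21 other shared sites (interquartile range 10 to 33), and another arm site had 51 (38 to 61). At least 20 shared sites lay within 500 kb of 291 isolated sites, or 52.7%, and of 94.1% of the other arm sites. Only 4 isolated sites had none within 500 kb. By these counts, the surroundings of isolated sites were less dense than those of other arm sites. The counts use the same summits as the choice, and the window includes the 50 kb on either side that the choice keeps empty.

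The arms differed in density. Of the 40 arms, 27 held at least 30 shared sites per Mb, up to 66.2, and 13 held fewer, down to 4.46. The 27 denser arms carried 284 isolated sites, which was 1.99% of their shared sites. The 13 sparser arms carried the other 268, which was 7.98% of theirs. Per length, the denser arms held 0.910 isolated sites per Mb and the sparser arms 1.65. In the denser arms alone, an isolated site had a median of 30 other shared sites within 500 kb.

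Chromosome 18 had the most isolated sites, 50, or 5.64% of its arm sites (95% Wilson interval 4.31 to 7.36). It was followed by chromosome 19 with 40 and chromosome 1 with 36. Per Mb of arm, chromosome 16 was the highest with 1.80 isolated sites, against 1.72 on chromosome 18. The 34 isolated sites of chromosome 16 were 5.01% of its arm sites. Chromosomes 11 and 17 had the fewest, 15 each, which was 1.81% and 1.53% of their arm sites. The mean over chromosomes was 27.6 ± 9.18 isolated sites (SD, n = 20), or 1.15 ± 0.313 per Mb of arm. The counts were almost even between the starting arms, with 274, and the far arms, with 278.

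**Figure D1:**
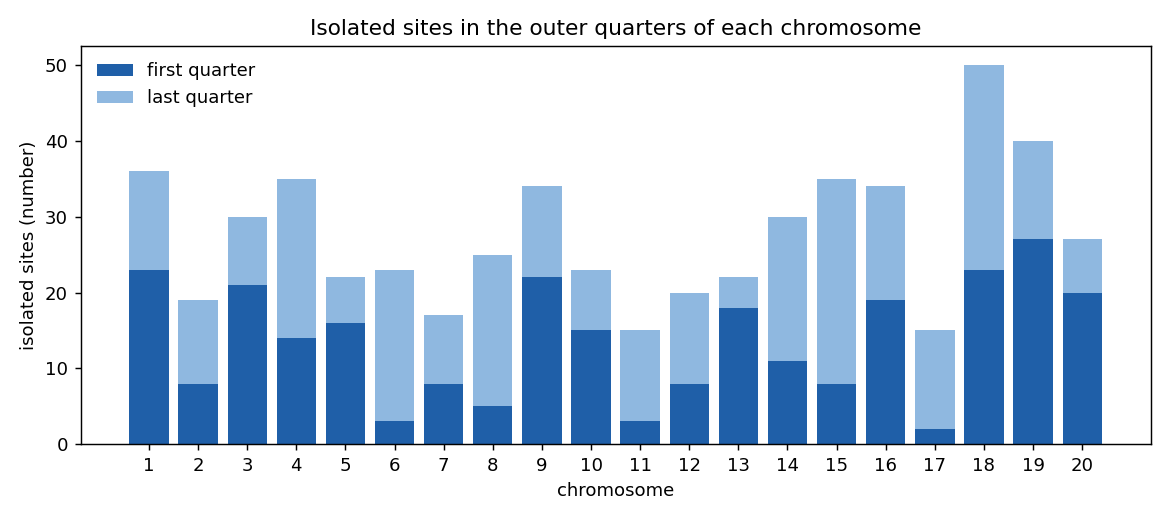
Number of isolated sites (vertical axis) on each of the 20 chromosomes (horizontal axis), with the first 25% of the chromosome in dark blue and the last 25% in light blue. Counts run from 15 on chromosomes 11 and 17 to 50 on chromosome 18, and on several chromosomes most sites lie in 1 of the arms.

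On single chromosomes the arms could differ widely. The starting arm of chromosome 13 held 18 isolated sites among only 51 shared sites, or 35.3%, at 4.46 shared sites per Mb, so it was no dense arm. The far arm of the same chromosome held 4 among 685. On chromosome 17, the starting arm held 2 among 689, at 66.2 shared sites per Mb. The far arm of chromosome 15 held 27 among 144, and the starting arm of chromosome 19 held 27 among 178.

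Within the arms, isolated sites lay further inward than the others. Their median distance from the chromosome end was 14.7% of the chromosome length (interquartile range 7.62 to 20.3), against 9.84% (4.87 to 15.8) for the other arm sites. The isolated share was 2.04% of the sites in the outermost 5% of the length (95% Wilson interval 1.67 to 2.501). It was 6.59% (5.62 to 7.71) between 20 and 25%, where the arms border the central part. Over the same steps the density of all shared sites went from 47.5 to 23.1 per Mb, and that of isolated sites from 0.970 to 1.52 per Mb. Isolated sites were also found near the ends. A total of 55 lay within 1 Mb of a chromosome end, as a share (9.96%) close to the 9.80% of the other arm sites. At 10 of them the end itself lay within 50 kb, so that 1 side of the site was not fully seen.

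**Figure D2:**
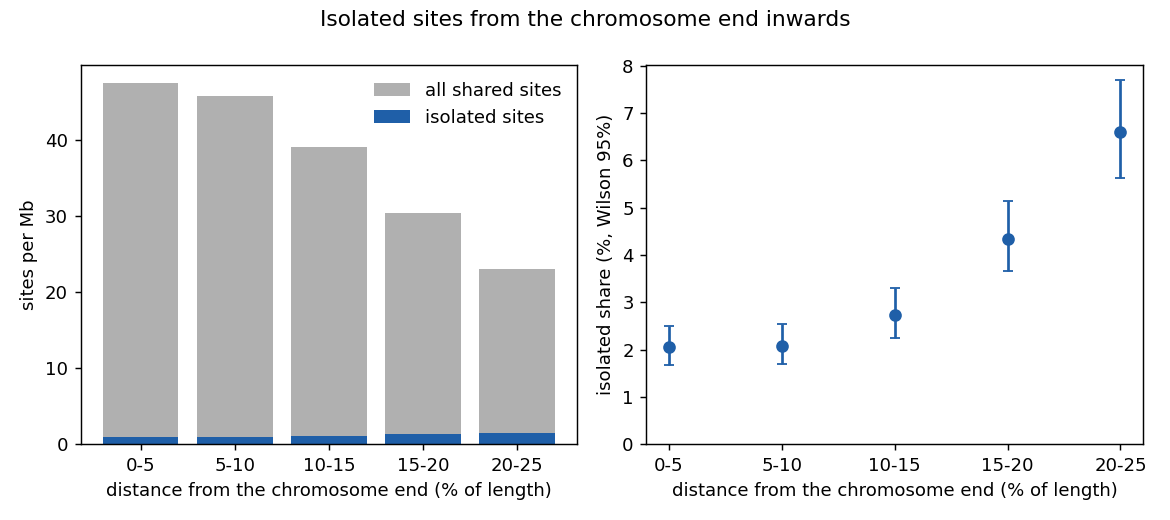
Left, shared sites per Mb (gray) and isolated sites per Mb (blue) by distance from the chromosome end in percent of the chromosome length. Right, the share of shared sites that were isolated, with 95% Wilson intervals, which was 2.04% in the outermost step and 6.59% in the innermost.

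About as many isolated sites followed each other as stood singly among sites with neighbours. The 552 sites formed 375 stretches. Of the sites, 273 (49.5%) had no isolated site next to them in the order of shared sites, and 279 (50.5%) had at least 1. Isolated sites in a row share the gap between them, so the choice itself favours such rows. The share of other arm sites next to an isolated site was not computed. There were 15 stretches of 4 or more isolated sites in a row. The longest by count held 8 on chromosome 20, between summits at 3205883 and 4521447, and the lower of the 2 folds ranged from 3.76 to 18.4. A stretch of 7 on chromosome 13 spanned 3.06 Mb between 2414671 and 5477539. Another 7 lay on chromosome 9 between 9901501 and 11660128. A stretch of 6 on chromosome 6, between 39696631 and 41645402, had lower-of-2 folds of 4.35 to 6.22, around the median of 5.84 of all isolated sites. Coordinates are 1-based positions on the authors' assembly, whose name the sources used here do not give.

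Isolated sites were slightly less enriched than the other arm sites. In replicate 1 the median fold was 7.21 (interquartile range 5.11 to 10.4), against 7.93 (5.60 to 11.8) for the others. In replicate 2 it was 6.58 (5.34 to 9.36), against 6.93 (5.22 to 10.3). The ranges overlap almost entirely, and the medians differed by −0.14 on the log2 scale in replicate 1 and by −0.08 in replicate 2. The replicate 2 difference was −0.017 with an isolation distance of 100 kb and −0.0201 when any peak of either replicate counted as a neighbour. On single chromosomes the isolated median was the lower one on 16 of 20 in replicate 1, on 13 in replicate 2 and on 12 in both. In replicate 2 the lower quartile was higher in the isolated sites, 5.34 against 5.22, so the difference there lay in the upper part of the range.

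**Figure D3:**
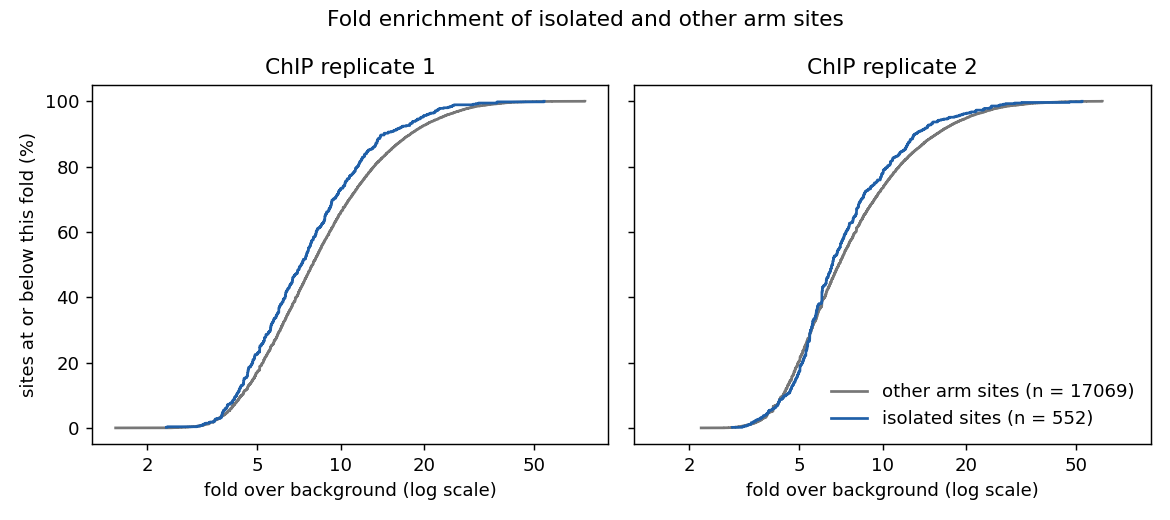
Cumulative share of sites (vertical axis, percent) at or below each fold over background (horizontal axis, log scale) for the 552 isolated sites in blue and the 17069 other arm sites in gray, in each ChIP replicate. The blue curve lies slightly to the left at the median and above, but not at the lower quartile of replicate 2 (5.34 against 5.22), with medians of 7.21 against 7.93 in replicate 1 and of 6.58 against 6.93 in replicate 2.

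Strong sites were present among the isolated ones, at a lower share. A fold over 10 in both replicates was reached by 92 isolated sites, or 16.7% (95% Wilson interval 13.8 to 20.004), against a background of 22.3% of all arm sites. A fold over 20 in both was reached by 13, or 2.36%, against 4.00% of all arm sites. When the arm sites were divided into deciles by the lower of the 2 folds, 1.93% of the strongest decile were isolated (1.38 to 2.69). The share was 3.74% in the weakest decile (2.95 to 4.73) and reached 4.09% in the fifth. Of the 100 strongest arm sites 2 were isolated, and of the 1000 strongest 20.

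The ChIP pileups showed the same order as the folds, from which they were solved together with the p-values, so they are no separate measure. Isolated sites had a median of 38 fragments in replicate 1, against 42 for the other arm sites, and of 26 against 28 in replicate 2. Peaks were also narrower, with medians of 407 against 442 bp in replicate 1 and of 318 against 336 bp in replicate 2. The isolated median width was lower on 18 of 20 chromosomes in replicate 1 and on 16 in replicate 2. Peaks of at least 800 bp in replicate 1 numbered 20 among the isolated sites (3.62%, 2.36 to 5.53) and made up 7.47% of the others (7.08 to 7.87).

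The median background was 4.40 fragments in replicate 1 and 2.98 in replicate 2 for isolated and other arm sites alike. The background of the peak caller comes from the input and cannot fall below a floor set by the genome-wide mean. The share of sites on this floor was higher among the isolated ones. The floor of 3.11 fragments in replicate 1 applied to 44 isolated sites, or 7.97% (5.99 to 10.5), and to 2.21% of the others (2.00 to 2.44). In replicate 2 the floor of 2.31 fragments applied to 40 isolated sites, or 7.25% (5.37 to 9.72), and to 2.29% (2.08 to 2.53). The share was above that of the other sites in the same arms in the denser arms too, with 4.93% against 1.91% in replicate 1 and 6.69% against 1.90% in replicate 2. It was not particular to the arms. Among 698 sites of the central 50% without a neighbour within 50 kb, the 10% quantile of the background was the floor in both replicates. The other central sites were on the floor at 4.45% in replicate 1 and 5.14% in replicate 2. The part of the input in the lower pileups and folds was not tested.

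Sites with a neighbour within 10 kb had higher median folds than those with the nearest neighbour at 10 to 50 kb, which in turn resembled the isolated sites. The 5349 arm sites with a neighbour within 2 kb had median folds of 8.46 in replicate 1 and 7.19 in replicate 2. The 7233 sites with the nearest neighbour at 2 to 10 kb had 8.03 and 7.03. At 10 to 25 kb the medians were 7.21 and 6.52 (3271 sites), and at 25 to 50 kb 7.17 and 6.62 (1216 sites). These sites are not isolated by the 50 kb limit, and their medians were close to the 7.21 and 6.58 of the isolated ones.

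Among the isolated sites, a greater distance went with no steady change. The 320 sites with the nearest neighbour at 50 to 75 kb had median folds of 7.28 and 6.59, and the 97 at 75 to 100 kb had 6.98 and 6.27. The 97 sites at 100 to 200 kb had 7.54 and 7.03. The 38 sites beyond 200 kb had 6.91 in replicate 1 and 5.51 in replicate 2. The share with a fold over 10 in both replicates was 25.8% within 2 kb, 23.5% at 2 to 10 kb, 16.7% at 10 to 25 kb and 17.0% at 25 to 50 kb. In the isolated classes it lay between 14.4% and 22.7%. Peaks were also wider at sites with a neighbour within 10 kb. Replicate 1 medians were 452 bp within 2 kb and 451 bp at 2 to 10 kb, against 415 bp at 10 to 25 kb. They were 412.5 bp at both 25 to 50 and 50 to 75 kb, and between 376 and 410 bp beyond.

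**Figure D4:**
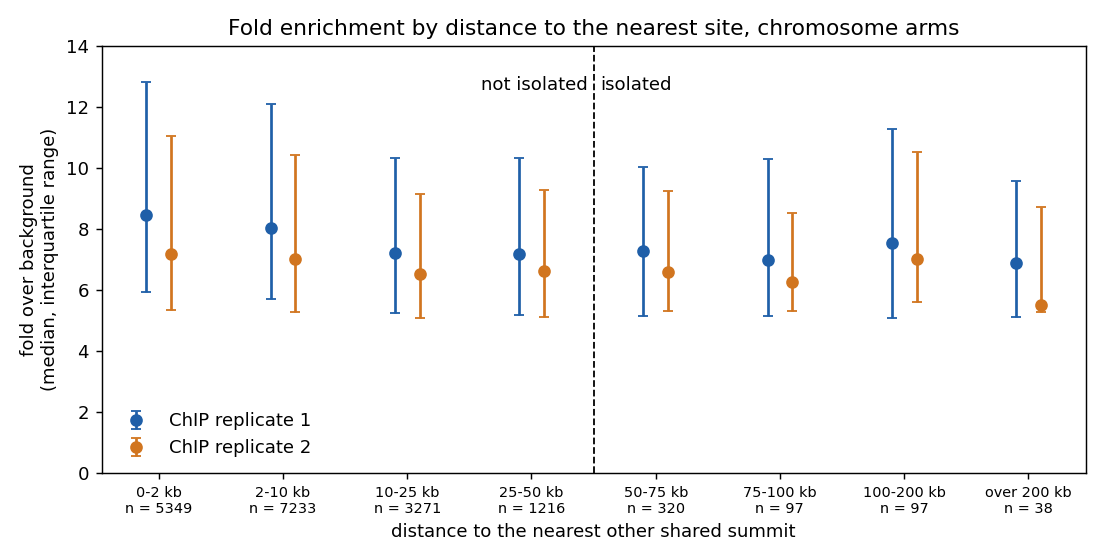
Median fold over background (vertical axis, bars for the interquartile range) of arm sites in 8 classes of distance to the nearest other shared summit (horizontal axis), for replicate 1 in blue and replicate 2 in orange, with the 50 kb limit as a dashed line. Medians are 8.46 and 7.19 within 2 kb and 7.21 and 6.52 at 10 to 25 kb, and vary around the latter beyond.

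Position in the arm did not give a single direction. In the outermost 5% of the chromosome length, isolated sites had a median fold of 5.98 in replicate 1, against 7.83 for the others, and of 6.25 against 6.93 in replicate 2. Between 5 and 10% the isolated median was the higher one in replicate 1, 8.76 against 7.99, and the lower one in replicate 2, 6.59 against 6.99. Between 20 and 25% the medians were 7.58 against 7.97 and 6.79 against 7.01. The 698 shared sites of the central 50% that also had no neighbour within 50 kb gave similar medians, 7.31 in replicate 1 and 6.87 in replicate 2, with a width of 405 bp in replicate 1. Such sites made up 15.1% of the central sites, against 3.13% in the arms.

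Most isolated sites were not free of weaker signal nearby. A peak found in only 1 replicate lay within 50 kb of 325 isolated sites, or 58.9% (54.7 to 62.9), and of 90.7% of the other arm sites. A peak of replicate 1 alone was present near 278 isolated sites and a peak of replicate 2 alone near 121. These neighbours were weak, with median folds of 4.62 for 418 peaks of replicate 1 and 4.72 for 138 peaks of replicate 2, and with highest folds of 9.25 and 8.20. Peaks found in only 1 replicate were as weak over all chromosomes, with medians of 4.59 for 8656 in replicate 1 and 4.67 for 2581 in replicate 2. The remaining 227 isolated sites had no other peak of either list within 50 kb.

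The summits of the replicates were as close at isolated sites as at other sites. Sites of both kinds needed overlapping peaks and were paired by the nearest summit, so the choice itself limits this distance. The median distance between the summits was 32 bp (interquartile range 14 to 58), against 31 bp (14 to 56) for the other arm sites, and 92.0% lay within 100 bp, against 91.9%. At 522 of the 552 sites, or 94.6% (92.3 to 96.2), the 2 folds differed by no more than 2-fold, against 95.1% of the others. The SD of the log2 ratio of the folds was 0.51 over isolated sites and 0.48 over the others. Across the 552 sites, Spearman's rho of the folds was 0.651 and Pearson's r on the log2 scale was 0.73. The values for the other arm sites were 0.739 and 0.80. These correlations describe sites of the same 2 libraries, which are not independent.

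The balance between the replicates differed somewhat. The fold was higher in replicate 1 at 296 isolated sites, or 53.6% (49.5 to 57.7), against a background of 61.5% of all arm sites. As a log2 ratio of replicate 1 to replicate 2, the median was 0.04 at isolated sites and 0.14 at the others. It was 0.17 at sites with a neighbour within 2 kb, 0.11 at 10 to 25 kb and 0.10 at 25 to 50 kb, so the values went down with distance on both sides of the 50 kb limit up to 75 kb, where it was 0.06. The difference was not particular to the arms. Of the 698 central sites without a neighbour within 50 kb, 54.9% had the higher fold in replicate 1, against 62.7% of the other central sites. The median log2 ratios of these central sites were 0.07 and 0.16. The replicates also differ in their median pileup and in their lowest background, whose part in the balance was not tested.

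Recovery in the other replicate was also compared without using that replicate to choose the peaks. For this, arm peaks were called alone when no other peak of their own list lay within 50 kb. In replicate 1, 404 arm peaks were alone, and 67.8% of them (63.1 to 72.2) overlapped a replicate 2 peak, against 72.0% of all arm peaks of replicate 1. Peaks alone were weaker, with a median fold of 5.59 against 6.37 for those with a neighbour. With the folds of the peaks alone, peaks with a neighbour would have reached 67.1%. In each of 6 classes of fold, the shares of both kinds lay close together, and that of the peaks alone was slightly higher in all 6. Examples are 37.3% (25.3 to 51.0) against 36.2% at folds up to 4 and 82.9% (72.4 to 89.9) against 82.2% at 6 to 8. All 73 replicate 1 peaks that were alone and over 10-fold were found in replicate 2.

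In replicate 2, 492 arm peaks were alone, and 86.0% of them (82.6 to 88.8) overlapped a replicate 1 peak, against 89.8% of all arm peaks of replicate 2. Here peaks with a neighbour would have reached 89.5% with the folds of the peaks alone, above the share of the peaks alone. The recovered share of the peaks alone was the lower one in the 4 classes of fold up to 8, unlike in replicate 1. Examples are 67.9% (57.0 to 77.3) against 76.4% at 4 to 5, and 79.4% (70.8 to 86.0) against 85.7% at 5 to 6. In each of these 4 classes, the interval of the peaks alone included the share of those with a neighbour. All 53 peaks alone at 8 to 10 and all 93 over 10 were found in replicate 1.

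**Figure D5:**
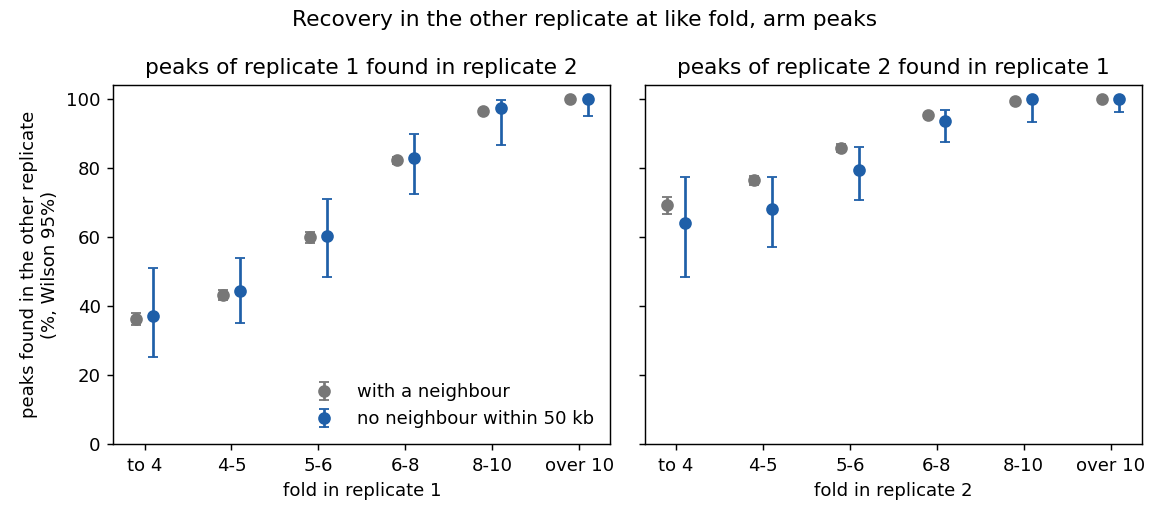
Share of arm peaks found in the other replicate (vertical axis, percent with 95% Wilson intervals) by fold in their own replicate (horizontal axis), for peaks with no other peak of their own list within 50 kb in blue and for the other arm peaks in gray. The shares rise with fold in both kinds, and in replicate 2 the blue points lie lower up to a fold of 8, as with 67.9% against 76.4% at 4 to 5.

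The 20 strongest isolated sites, ranked by the lower of their 2 folds, lay on 14 chromosomes, with mean folds between 19.0 and 53.4. They rested on 87 to 276 fragments in replicate 1 and on 59 to 206 in replicate 2. Their summits differed by a median of 16.5 bp and by at most 78 bp between replicates. Replicate 1 had the higher fold at 11 of them, against 53.6% of all isolated sites, and the SD between replicates averaged 2.63. No other peak of either list lay within 50 kb of 12 of them, against 227 of all 552 isolated sites.

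The first of them was the site on chromosome 19 at 48891805 to 48892438, which ranked 3 among all 17621 arm sites. Its fold was 54.3 in replicate 1 and 52.5 in replicate 2, with pileups of 276 fragments (244 to 311, 95% exact Poisson interval) and 206 (179 to 236). The replicates were nearly equal there, and the nearest other shared summit was 76.7 kb away. The second, on chromosome 16 at 33839344 to 33840199, had folds of 36.6 and 47.1, with 229 (200.3 to 261) and 176 (151 to 204) fragments. Replicate 2 was the higher one at this site, and the summits were 2 bp apart, at 33839917 and 33839915.

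Chromosome 9 held the third site, at 5524572 to 5525240, with folds of 31.4 and 29.9 and with 184 (158 to 213) and 133 (111 to 158) fragments. Its nearest shared neighbour on the left was 238 kb away and that on the right 50.5 kb, close to the limit. On chromosome 15, the site at 40801738 to 40802475 had folds of 25.6 and 27.2, and only 7 other shared sites lay within 500 kb. The site on chromosome 18 at 48513361 to 48513979 had almost the same fold in both replicates, 24.8 and 24.6. On chromosome 10, the site at 11387698 to 11388438 had folds of 36.7 and 24.3, the largest spread between replicates among the 20 (30.5 ± 8.79, SD, n = 2).

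Among the 20 were also wide peaks. The site on chromosome 1 at 3715453 to 3717539 was 2087 bp wide in replicate 1 and 1116 bp in replicate 2, with folds of 30.0 and 21.7. Another on chromosome 1, at 55774899 to 55776766, was 1868 and 862 bp wide, with folds of 22.6 and 26.2. The site on chromosome 14 at 47280083 to 47281666 was 1584 and 1097 bp wide, with folds of 30.8 and 23.3. In all 3, the peak was wider in replicate 1. The narrowest of the 20 in replicate 1 was a site of 436 bp on chromosome 18 at 8446065 to 8446500, with folds of 19.4 and 20.6 and summits 1 bp apart. It was also among the 10 most remote isolated sites, with the nearest other shared summit at 396 kb.

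The 10 isolated sites farthest from any other shared site were mostly of ordinary strength. Their nearest neighbours lay at 373 to 831 kb, and they were 14.6 to 24.9% of the chromosome length from the end. The median of the lower-of-2 fold was 5.46, close to the 5.84 of all isolated sites. The most remote, on chromosome 20 at 10673856 to 10674088, had folds of 4.81 and 3.14, from 25 fragments (16.2 to 36.9) and 12 (6.20 to 21.0). Its neighbours were 2069 kb away on the left and 831 kb on the right, and its lower fold was the lowest of the 10. On chromosome 3, the site at 11412502 to 11412932 had its nearest neighbour at 647 kb and folds of 5.84 and 5.56.

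On chromosome 15, the isolated sites at 41666987 to 41667592 and at 42200672 to 42201038 were next to each other, 534 kb apart. The first had folds of 7.01 and 9.83 and the second had 4.08 and 5.45, both being higher in replicate 2. On chromosome 14, the site at 37486048 to 37486514 stood 422 kb from its neighbour with folds of 12.5 in both replicates, from 70 and 49 fragments. Besides the site of chromosome 18 named above, it was the other one of these 10 with a fold over 10 in both replicates.

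A few isolated sites differed strongly between the replicates. The highest ratio of replicate 1 to replicate 2 was at 6520479 to 6520879 on chromosome 16, with folds of 13.4 and 4.65. Its pileups were 54 (40.6 to 70.5) and 36 (25.2 to 49.8) fragments, and its background was 3.11 in replicate 1 and 6.96 in replicate 2. The backgrounds were thus in the opposite order to the folds. At 9903790 to 9904339 on chromosome 4, the folds were 9.24 and 3.35, from 46 (33.7 to 61.4) and 14 (7.65 to 23.5) fragments with similar backgrounds of 4.08 and 3.48. There the pileups themselves differed.

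In the other direction, the lowest ratio was at 49792051 to 49792574 on chromosome 9, with folds of 4.48 and 12.2, from 35 and 42 fragments over backgrounds of 7.04 and 2.54. At 2289249 to 2289847 on chromosome 3, the folds were 13.3 and 31.8, from 85 and 105 fragments. Here too the background was higher in replicate 1, 5.47 against 2.34. Over all isolated sites, the medians were higher in replicate 1 for the background, 4.40 against 2.98, and for the pileup, 38 against 26 fragments. At both of these sites the pileup was instead the higher one in replicate 2. One isolated site, singled out after its values were seen, had a background over 20 fragments, on chromosome 5 at 3842023 to 3842690. Its background was 37.0 fragments in replicate 1 and 15.4 in replicate 2, and its folds of 2.34 and 2.86 were the lowest of the isolated sites in each replicate.

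Sites on either side of the 50 kb limit had overlapping folds. The 5 isolated sites just inside it had nearest neighbours at 50.06 to 50.3 kb and mean folds between 3.89 and 9.11. The 5 arm sites just outside had theirs at 49.87 to 49.97 kb and mean folds between 4.83 and 18.5. The sequences of the isolated sites and the genes next to them were not analysed here, since they need the authors' assembly and its annotation.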

How the data were processed

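Chromatin was crosslinked in 1% formaldehyde and sonicated to 100 to 500 bp, and libraries were amplified with 15 PCR cycles, per the labels' protocols. Bowtie 0.12.7 and MACS2 were used, per the submitters' processing notes, and the sources used here give neither the assembly nor the version of MACS2. The authors deposited a peak list for each ChIP replicate, called per replicate. In the MACS2 column order, the authors deposited positions, a score that the peak caller derives from q, the fold as a linear ratio to background, and the −log10 of p and of q at the summit. The inputs enter only through the peak calling.

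Read totals are unknown. For each peak, a whole fragment count k and a background λ were solved from the deposited fold, taken as (k + 1)/(λ + 1), and from the deposited p-value, taken as the Poisson tail above k. The largest deviation was 0.0721% (replicate 1) and 0.581% (replicate 2) of the step between whole numbers. This rests on how MACS2 computes its values. It was tried on simulated data made with the same formulas, which checks the solving step only and not the formulas. PCR duplicates are not independent molecules, so 95% intervals (Wilson for shares, exact Poisson for fragments) cover counting error only.

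Chromosome length was the largest peak end in either list, and scaffolds were left out. The replicate 2 value of a site is that of the overlapping peak with the nearest summit. The named sites are the 20 strongest by the lower fold of the replicates, the 10 with the largest distance to the nearest shared summit, 5 on each side of the 50 kb limit and the 5 highest and 5 lowest ratios between replicates; not every one is described. The sites and comparisons were chosen with earlier results of these data known, and no test was made. The classes of distance, fold and position and the limit of 30 sites per Mb were set in this work after the peaks had been seen. Samples were grouped by their titles, which give the replicate numbers. Alternatives for the isolation distance, the arms, the overlap, the q threshold and the replicate were tried. The versions were pandas 2.3.3, scipy 1.17.1, numpy 2.4.6 and matplotlib 3.10.9 under Python 3.11.15.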

Additional observations from a re-analysis of the deposited data

How the results depend on the processing

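The isolated sites had lower median folds in both replicates, and narrower peaks in replicate 1, under every one of the 11 alternatives that gave each value. Of 109 recomputed values, 69 stayed within the spread of the reported one, 8 were counts of sites within 1.5 times the reported count, and 32 moved. A distance of 25 kb gave 1768 isolated sites (10.03%, median position 12.4% of the length from the end). A distance of 100 kb gave 135 (0.766%, position 18.4%), a log2 fold difference of −0.017 in replicate 2 and a summit distance of 27 bp. Outer parts of 20% gave a share of 2.64% and a position of 10.95%, and those of 30% gave 3.76%, 18.0% and a log2 background difference of −0.0079. Reciprocal overlap of 50% gave a share of 3.59%, with one-replicate peaks near 63.8%. A −log10 q of at least 10 gave 7.08%, one-replicate peaks near 63.3%, a position of 13.01% and an SD of the log2 fold ratio of 0.46. Counting any peak of either replicate as a neighbour left 227 sites (1.29%), with log2 differences of −0.0201 in replicate 2 fold and −0.15 in width. The denser arms alone, chosen after seeing the data, gave 284 sites (1.99%), a replicate 1 fold difference of −0.19, one-replicate peaks near 71.1% and a position of 15.9%. Each of these uses other or fewer sites by construction.

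All peaks of 1 replicate, with the other left out, gave 404 to 492 isolated peaks, a share of 1.65% to 2.45% and positions of 15.3% to 15.6%. Without replicate 2 the replicate 1 fold difference was −0.19, the width difference −0.13 and the log2 background difference −0.0737. Without replicate 1 the replicate 2 fold difference was −0.10. No paired analysis was possible because the input samples have no peak list here to pair with the ChIP. The isolated sites with the fewest fragments rested on 15 in replicate 1 and 12 in replicate 2, which limits the precision of their folds.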
